A study of Mus musculus with 8 samples.

Results

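A set of 10 transcription factor genes that pattern the neural plate border and start the neural crest programme was read in 8 mouse tumours: Foxd3, Ets1, Pax7, Pax3, Tfap2a, Tfap2c, Zic1, Zic2, Msx1 and Msx2. They are 10 of the gene symbols on an array that gave 22180 genes a value, and where several probe sets carried a symbol and no other, the one with the highest mean stood for the gene. A value was obtained for 9 of the 10. The 2 probe sets of Msx1 also carry the name of its antisense RNA, Msx1os, so Msx1 is not analysed here.

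The tumours carry 1 label and form 1 group (n = 8). Primary mouse neural crest cells, a mixture of p53+/- and p53-/- cells (N-Myc; p53mixed), were transduced with N-Myc, the MYC family factor amplified in high-risk human neuroblastoma. About 10000 of these cells were placed under the skin of each mouse 48 hours after infection, and the primary tumours were taken after about 50 days. The mice were C57Bl/6 or nude. The labels tie no tumour to a host or to a p53 genotype and do not say whether each tumour came from its own culture or animal, so p-values measure only the spread between these arrays, which may be technical. No untransduced crest cells or normal tissue were analysed here. Of the sympathoadrenal markers of the labelled tumour type, among them Th, Dbh and Isl1, 9 of 9 measured were above the array background, as were 57.3% of all genes. All 9 were lowest in tumour 6, where Dbh was at 5.72, against 9.87 to 11.43 in the others, and Gata2, at 5.45, was under the background of the array.

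The neural crest forms where the neural plate meets the ectoderm. Signals there switch on border factors of the AP-2 (Tfap2), Pax3 and Pax7, Msx and Zic families, and these switch on crest specifiers such as Foxd3 and Ets1, followed by Sox9, Sox10 and Snai2. In the embryo most of the early factors are turned down as crest cells leave the neural tube and become neurons, glia, pigment cells or skeleton. The comparison made here asks which of them were still expressed in the tumours.

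Of the 9 measured genes, 3 were above the array background, 4 were below it and 2 did not differ from it. Foxd3, Ets1 and Pax7 were above background on all 8 arrays, as were 54.5% of all genes. Zic1, Zic2, Msx2 and Tfap2c were below it, and Pax3 and Tfap2a lay on average at it, Tfap2a because the tumours differed widely. Background is the 95th percentile of 1440 receptor probe sets (bitter taste, vomeronasal and olfactory receptor genes) on the same array, 5.45 to 5.66 on the log2 scale. A gene was called above or below it where the mean difference over the tumours had a Benjamini-Hochberg adjusted p under 0.05 over all genes in limma, a linear model with moderated variance. On average Zic1, Zic2, Msx2 and Tfap2c still exceeded 87.9%, 89.2%, 87.3% and 70.5% of the receptor probe sets. A call below background thus places a gene within the range of these probe sets and does not show that it was absent. Over the whole array 57.3% of genes were called above background and 36% below it. These shares include the 1429 receptor genes, most of which lie below background because their own probe sets define it. The median difference from background was -0.18 for the 9 genes and 0.68 for all genes. The count depends on where background is set: with the 99th percentile of the receptor probe sets 0 of the 9 were called above it (limma; Foxd3 alone had a positive difference, 0.35, adjusted p = 0.112), with the 90th percentile 4, and with the median all 9. Levels of different genes come from different probes and are set against background only, not against each other.

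**Figure D1:**
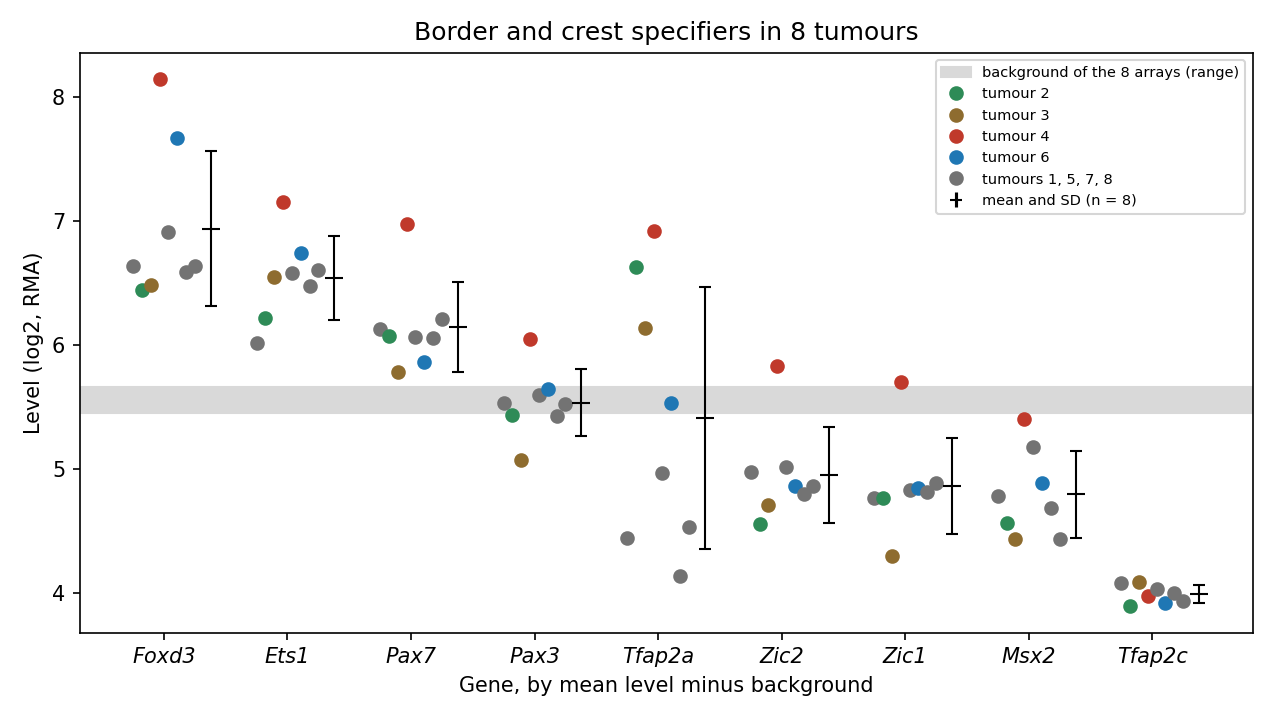
Level of each gene (log2, RMA) in the 8 tumours, 1 point per tumour, with the mean and SD beside the points and the range of the arrays' background as a grey band. Foxd3, Ets1 and Pax7 lie above the band in all 8 tumours, Tfap2a spans it, and tumour 4 is the highest point for 8 of the 9 genes.

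Of the members, 6 have promoter sequences in the table used here, 250 bases before to 50 after a transcription start, from RefSeq on GRCm38.p6. No source used here names the build on which the probe sets were designed. Those of 4 genes are shown: Foxd3 and Pax7, which were above background, Tfap2a, which varied most, and Zic1, which was above background in 1 tumour. Capitals mark matches to 3 motifs, each of which reads the same on both strands: CACGTG, the E-box that Myc family proteins bind, GCCNNNGGC, an AP-2 site, and TAATTA, a core that many homeodomain proteins bind. The Foxd3 promoter is chr4:99656049-99656348 on the plus strand, that of Pax7 is chr4:139832919-139833218 on the minus strand, that of Zic1 is chr9:91365719-91366018 on the minus strand, and the upstream of 2 Tfap2a promoters is chr13:40734871-40735170 on the minus strand.
Foxd3: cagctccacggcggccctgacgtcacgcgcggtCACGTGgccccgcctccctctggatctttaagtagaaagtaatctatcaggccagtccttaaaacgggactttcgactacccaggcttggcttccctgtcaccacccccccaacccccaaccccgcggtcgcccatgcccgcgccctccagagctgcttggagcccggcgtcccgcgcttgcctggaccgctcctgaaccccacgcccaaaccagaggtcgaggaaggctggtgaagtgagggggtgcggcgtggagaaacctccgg
Pax7: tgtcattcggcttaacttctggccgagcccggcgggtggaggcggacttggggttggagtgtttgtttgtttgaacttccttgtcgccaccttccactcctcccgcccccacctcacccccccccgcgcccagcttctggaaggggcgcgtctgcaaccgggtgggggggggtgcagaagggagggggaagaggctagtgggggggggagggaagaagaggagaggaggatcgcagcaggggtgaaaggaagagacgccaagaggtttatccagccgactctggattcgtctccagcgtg
Zic1: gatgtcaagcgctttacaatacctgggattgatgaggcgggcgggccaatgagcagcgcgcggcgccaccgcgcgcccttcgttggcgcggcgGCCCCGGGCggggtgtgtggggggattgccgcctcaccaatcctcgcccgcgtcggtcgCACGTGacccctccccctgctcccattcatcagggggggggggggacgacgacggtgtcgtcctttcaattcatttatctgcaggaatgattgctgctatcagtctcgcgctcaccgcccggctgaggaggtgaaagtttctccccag
Tfap2a: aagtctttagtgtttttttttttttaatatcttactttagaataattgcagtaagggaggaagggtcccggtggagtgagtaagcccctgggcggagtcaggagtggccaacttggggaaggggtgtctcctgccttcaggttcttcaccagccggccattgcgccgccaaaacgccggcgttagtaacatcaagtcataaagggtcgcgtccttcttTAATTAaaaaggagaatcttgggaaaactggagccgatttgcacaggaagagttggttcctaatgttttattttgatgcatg

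Foxd3 has 1 E-box, starting at base -217 from the transcription start. Zic1 has 1 E-box, at -98, and 1 AP-2 site, at -157. The upstream Tfap2a promoter has 1 homeodomain core, at -32, and the other Tfap2a promoter and that of Pax7 hold none of these letters. Of all 32851 promoters of the same length, 7.15% hold the E-box, 16.6% the AP-2 site and 5.29% the homeodomain core. These are letter matches and not measured binding sites. The Foxd3, Zic1 and Pax7 promoters were 65.7%, 65.3% and 63.7% G and C, against a median of 52.7% over all promoters. The upstream Tfap2a promoter was at 46.3% and the other at 61%.

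Foxd3, a forkhead repressor that keeps crest cells multipotent and is among the first crest specifiers, was above background in every tumour. It ranged from 6.44 in tumour 2 through a median of 6.63 to 8.15 in tumour 4, with 7.67 in tumour 6. Tumours 4 and 6 stood above the other 6, which lay between 6.44 and 6.91. The mean was 6.94 ± 0.63 (SD, n = 8), 1.36 ± 0.19 (SE) above background on the log2 scale (limma, adjusted p = 2.95e-05). In tumour 4 it was 5.60-fold and in tumour 6 4.40-fold over the background of the array, and in the others 1.75-fold to 2.43-fold. The SD of Foxd3 was larger than that of 94.6% of detected genes.

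The tumours high in Foxd3 were those high in Sox10, the crest and glial factor, with 8.32 for tumour 4, 8.05 for tumour 6 and 5.43 to 6.30 elsewhere. By Pearson's r over the 8 tumours among 1192 detected genes with an SD of at least 0.5, the 3 genes closest to Foxd3 were Mmd2 (r = 0.98), Erbb3 (0.97), the neuregulin receptor of glial precursors, and Igf2 (0.97), a fetal growth factor. Erbb3 reached 9.50 and 8.58 in tumours 4 and 6 and 5.40 to 6.48 elsewhere. Igf2 reached 7.52 and 6.98 in them and 5.51 to 6.27 elsewhere. In all, 44 of these genes (3.69%) had an r over 0.9 with Foxd3. These values are descriptions, since 2 tumours set most of each r. Beside Foxd3, the detected Schwann cell and glia markers (4 of 8 measured: Mbp, Fabp7, Pmp22 and Egr2) had an average of 8.65 (tumour 4), 8.08 (tumour 6) and 6.36 to 7.54 (the other tumours). The relation of Foxd3 with this average had r = 0.85 (exact permutation, two-sided, p = 0.0147, adjusted p = 0.0405) and rho = 0.40 (exact permutation, p = 0.327, adjusted p = 0.599). Without tumours 4 and 6 r was -0.27 (exact permutation, p = 0.593), so the relation rests on those 2 tumours. The detected sympathoadrenal markers had their lowest averages in the same tumours, 9.93 in tumour 4 and 8.58 in tumour 6, with 10.20 to 10.92 in the others. The part of glial cells and of sympathoadrenal cells in the Foxd3 level was not tested. In bulk tumours fewer cells of a type and less RNA per cell cannot be told apart.

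**Figure D2:**
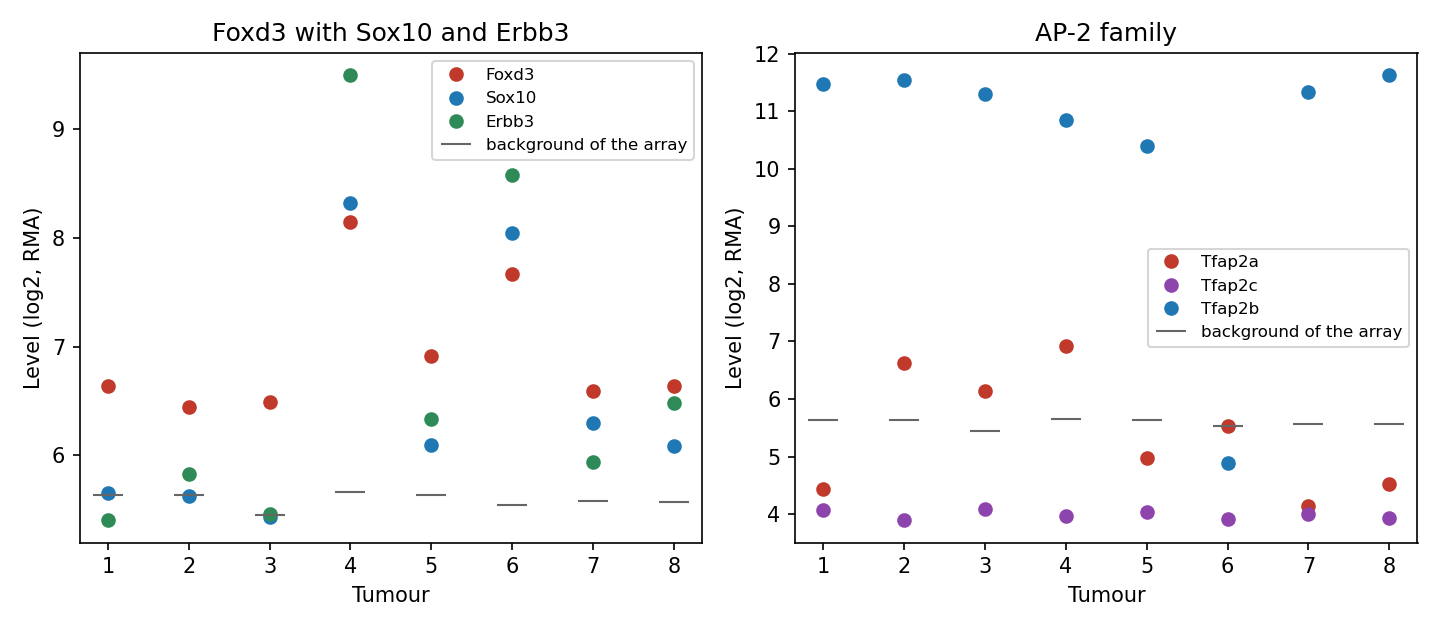
Levels (log2, RMA) by tumour of Foxd3, Sox10 and Erbb3 on the left and of the AP-2 family genes Tfap2a, Tfap2c and Tfap2b on the right, with a dash at the background of each array. The 3 genes on the left are highest in tumours 4 and 6, and Tfap2a is above background in tumours 2, 3 and 4 while Tfap2b is below it in tumour 6 alone.

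Ets1, an Ets family factor that works in cranial crest and also in endothelial cells and lymphocytes, was above background in all tumours with a smaller spread. Its level ran from 6.01 in tumour 1 through a median of 6.56 to 7.16 in tumour 4. Tumours 1 and 2 were lowest, and tumours 3 to 8 other than tumour 4 lay between 6.48 and 6.74. The mean of 6.54 ± 0.34 (SD, n = 8) was 0.96 ± 0.11 (SE) above background (limma, adjusted p = 3.87e-06). A second probe set, annotated to both Taok1 and Ets1, was not used.

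Markers of endothelium were compared with Ets1 over the tumours. Of 10 endothelial markers 8 were above background, and their mean was lowest in tumour 1 (6.66) and highest in tumour 4 (7.93), as Ets1 was. The relation with Ets1 had r = 0.87 (exact permutation, two-sided, p = 0.00871, adjusted p = 0.0377) and rho = 0.76 (exact permutation, p = 0.0368, adjusted p = 0.202). Without tumours 1 and 4, the farthest from the median of Ets1, r was 0.44 (exact permutation, p = 0.383). The related factors Fli1 and Erg, which mark endothelium, were at 7.31 ± 0.43 and 6.14 ± 0.57 (SD, n = 8) and had the same lowest and highest tumours. None of the 8 measured T, NK and B cell markers was above background (limma; all 8 were below it). The relation of Ets1 with the glial markers had r = 0.88 (exact permutation, p = 0.00273, adjusted p = 0.03). That with Foxd3 had r = 0.81 (exact permutation, p = 0.0103, adjusted p = 0.0377). Neither had a rho that passed (exact permutation, adjusted p = 0.118 and 0.254), and without tumours 1 and 4 r was 0.64 and 0.73 (exact permutation, p = 0.19 and 0.147). Of 24 planned relations, 11 were computed, and the p-values were adjusted over these 11. The other 13 had a measure in which a single tumour lay far from the rest: tumour 4 for Pax7, tumour 5 for the keratinocyte markers and tumour 6 for the sympathoadrenal markers. The Pearson p-value of 4 relations passed and the Spearman p-value of none (lowest adjusted p = 0.118). Without tumour 7 or 8 in turn 0 of the Pearson values passed. Without tumour 4 the count was also 0, but only among the relations computed there. Without tumour 4, 5 or 6 no relation of Foxd3 was computed, so those with Ets1 and with the glial markers were not retested. The relations of Ets1 with endothelial and with glial markers failed without tumour 4 (exact permutation, adjusted p = 0.133 for each). Which cells made the Ets1 RNA was not tested.

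Pax7 and Pax3 are paired-box factors of the border and dorsal neural tube, and of muscle progenitors, and they part here by a small margin. Pax7 lay between 5.79 in tumour 3 and 6.97 in tumour 4 with a median of 6.07. Outside tumour 4 it kept to a narrow range, the next highest value being 6.21 in tumour 8. Its mean was 6.15 ± 0.36 (SD, n = 8), 0.56 ± 0.10 (SE) above background (limma, adjusted p = 0.000216), and without tumour 4 the difference was 0.45 (limma, adjusted p = 2.41e-05). Against the 99th percentile of the receptor probe sets Pax7 was 0.45 lower than background (difference -0.45, limma, adjusted p = 0.00128).

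Pax3 ran from 5.08 in tumour 3 through a median of 5.53 to 6.05 in tumour 4. Only the values of tumours 4 and 6 exceeded the background of their arrays, by 0.39 and 0.11. The mean of 5.54 ± 0.27 (SD, n = 8) did not differ from background (-0.05, limma, adjusted p = 0.533). Without tumours 4 and 6 it was below background (-0.15, limma, adjusted p = 0.0448), a setting chosen after seeing the data. Against the 90th percentile of the receptor probe sets it was 0.56 above (limma, adjusted p = 1.35e-05). Among reported targets of Pax3 and Pax7, 3 of 9 were above background, against 57.3% of all genes. They were Ret (8.78 ± 0.78), the GDNF receptor kinase, Id3 (6.18 ± 0.82) and Mitf (5.89 ± 0.24), the pigment cell factor (SD, n = 8 each). The count was 2 without tumour 3, 4, 5, 6 or 8. Dct, a melanin synthesis gene, was at 8.01 in tumour 4 and at 4.82 to 5.52 in the others. Myf5, a muscle progenitor factor, was at 6.65 in tumour 4 and 5.32 to 5.83 in the others. Of 10 skeletal muscle markers 5 were above background, and their mean was 6.71 in tumour 4, against 6.60 to 8.58 in the others. Myod1, which starts muscle differentiation, was not above background and, like Myf5, was highest in tumour 4 (5.84, against 5.08 to 5.62 in the others). These were the only 2 of the 10 muscle markers highest there. Myog, another muscle factor of the list, was above background on all 8 arrays and highest in tumour 5 (6.59, against 6.53 in tumour 4). The part of muscle cells in the Pax7 and Pax3 levels was not tested. The other measured Pax genes, Pax1, Pax2, Pax4, Pax5, Pax6, Pax8 and Pax9, had 0 of 7 above background (limma; 6 were below it).

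Tfap2a, the AP-2 factor that acts first at the border and in surface ectoderm, differed most between tumours of all the members. Tumours 2, 3 and 4 were at 6.63, 6.13 and 6.92, tumour 6 was at 5.53, and tumours 1, 5, 7 and 8 were at 4.44, 4.97, 4.13 and 4.53. The first 3 were 0.99, 0.68 and 1.26 above the background of their arrays, tumour 6 was at background and the others were 0.66 to 1.44 below it (differences of -0.66 to -1.44). The range of 2.79 on the log2 scale is 6.90-fold, and the SD of 1.06 exceeded that of 99.1% of all genes. The mean of 5.41 ± 1.06 (SD, n = 8) did not differ from background (-0.18, limma, adjusted p = 0.617).

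Other AP-2 genes did not follow this pattern. Tfap2c had the smallest SD of the members (0.073) and was below background on all 8 arrays, from 3.89 through a median of 3.99 to 4.09, with a mean 1.60 below background (difference -1.60, limma, adjusted p = 3.34e-12). Tfap2b, the AP-2 factor of sympathetic neurons, was at 10.39 to 11.63 in 7 tumours and at 4.88 in tumour 6. Tfap2e was at 6.14 ± 0.16 (SD, n = 8) and above background, and Tfap2d was at 4.26 ± 0.82 and below it, with 6.22 in tumour 4. Of 9 measured keratinocyte markers 2 were above background, Krt10 and Lor, and 5 were below it. The mean of these 2 was 7.26 in tumour 5, where Tfap2a was at 4.97, and 6.14 to 6.35 in the others. Krt14 was at 9.13 in tumour 5 and 4.82 to 5.29 in the others. The part of skin cells in the Tfap2a level was not tested. The genes closest to Tfap2a over the 8 tumours, looked up after its values were seen, were Mt2 (r = 0.92), a metallothionein, Ly96 (0.89), a co-receptor of innate immune cells, and Slc26a4 (0.86), an anion transporter. Of 1193 genes 1 had an r over 0.9 with Tfap2a. The cofactors and inhibitors of AP-2 factors were expressed: Cited2, a coactivator, was at 11.22 ± 0.25, and Kctd15 and Kctd1, inhibitors of AP-2 activity, at 8.37 ± 0.24 and 8.15 ± 0.24 (SD, n = 8 each).

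**Figure D3:**
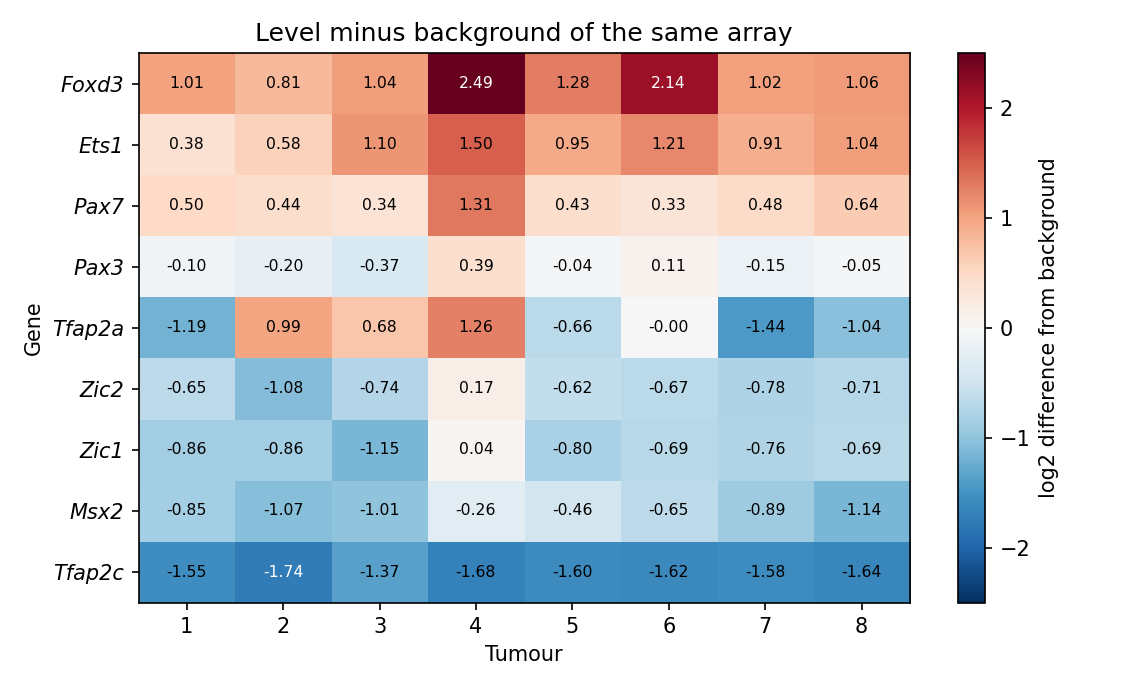
Difference of each gene from the background of the same array (log2) in each tumour, red above and blue below background. Foxd3, Ets1 and Pax7 are above background in every column, and tumour 4 has 7 of 9 genes above it, against 3 or 4 in the other tumours. Of all 22180 genes, 13550 are above it in tumour 4 and 13063 to 13606 in the others.

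The Zic factors, zinc finger proteins of the neural plate and its border, were below background outside tumour 4. Zic1 was lowest in tumour 3 (4.30), had a median of 4.82 and was highest in tumour 4 (5.70). Zic2 ran from 4.55 in tumour 2 through a median of 4.86 to 5.83 in tumour 4. The means were 0.72 and 0.63 below background (differences of -0.72 and -0.63, limma, adjusted p = 3.33e-05 and 0.000143). In tumour 4 the values were 0.04 and 0.17 above the background of the array, which places them at its edge. Their paralogue Zic4 was below background (5.06 ± 0.19) and Zic5 was 0.28 above it (5.86 ± 0.20; SD, n = 8 each; limma, adjusted p = 0.00145). Msx2, a homeodomain repressor downstream of BMP signals, was below background on all 8 arrays, from 4.43 in tumour 8 through a median of 4.73 to 5.40 in tumour 4 (mean difference -0.79, limma, adjusted p = 5.59e-06). With the 90th percentile of the receptor probe sets as background, Zic1, Zic2 and Msx2 no longer differed beyond the threshold (limma, adjusted p = 0.317, 0.845 and 0.0843).

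Tumour 4 had the highest level of 8 of the 9 members, all but Tfap2c, and 7 of the 9 were above background there, against 3 or 4 in each other tumour. Of all 22180 genes, 13550 were above background in tumour 4 and 13063 to 13606 in the others. Among the 7, Zic1 and Zic2 were at the edge of background. Tfap2a was 1.95 above the median of the other 7 tumours on the log2 scale, Foxd3 1.51, Zic2 0.97, Pax7 0.91, Zic1 0.88, Msx2 0.72, Ets1 0.61 and Pax3 0.53. Tfap2c was at -0.02. The differences of the first 8 lay between the 93.6th percentile (Pax3) and the 99.5th (Tfap2a) of all 22180 genes. This pattern was chosen after it was seen, so it is described and not tested. Tumour 4 was also the highest of the 8 for 17.2% of all genes and for 22.3% of genes not called above background, and the median difference of these low genes was 0.08. Tumour 5 had similar values, 17.7%, 22.4% and 0.08. Of genes called above background, 13.3% were highest in tumour 4 and 14.2% in tumour 5. Of the receptor genes that set background, 15.9% were highest in tumour 4 with a median difference of 0.03. Some other lists had their highest values there. All 8 measured Schwann cell and glia markers were highest in tumour 4, among them Gfap at 10.71, against 5.05 to 5.93 in the others. So were 8 of 10 endothelial and 5 of 8 melanocyte markers, though only 1 of the 8 melanocyte markers was above background. Of 9 reported Pax targets 8 were highest there, and of 14 later crest specifiers 9. Other lists differed, with 0 of 9 sympathoadrenal, 0 of 10 fibroblast, 0 of 10 macrophage and 0 of 9 keratinocyte markers highest there. The counts were 2 of 10 for muscle markers, 3 of 8 for T, NK and B cell markers and 2 of 16 for effectors of migrating crest cells. The part of these cell types and of the array in the levels of the members was not tested.

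**Figure D4:**
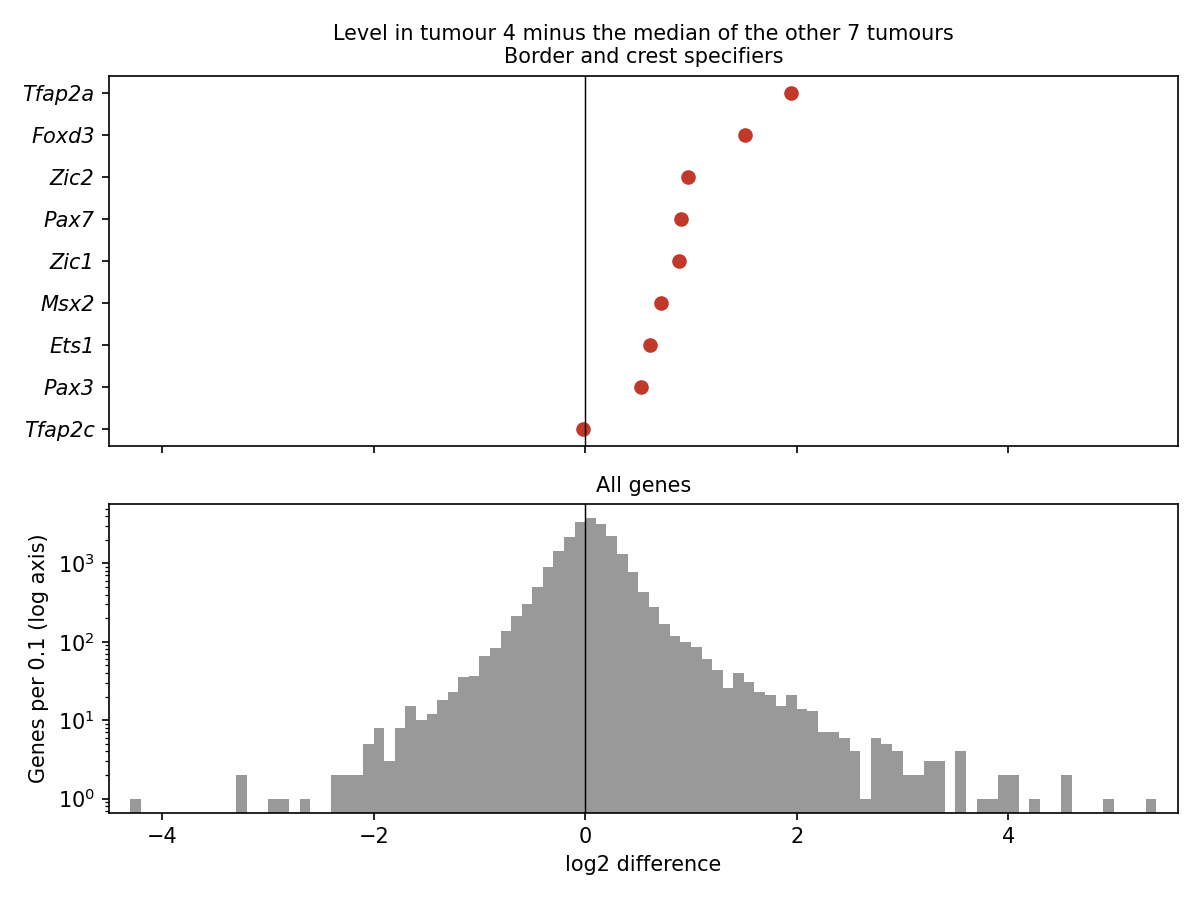
Level in tumour 4 minus the median of the other 7 tumours (log2), for each member above and as counts of all 22180 genes per 0.1 below, on a log axis. Of the 9 members 8 lie right of 0, from 0.53 for Pax3 to 1.95 for Tfap2a, while the counts of all genes peak near 0.

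The rest of the crest programme was read from fixed lists, each beside the 57.3% of all genes above background. Among 11 other border genes 7 were above it, among them Dlx5 at 7.84 ± 1.67, from 4.99 in tumour 8 to 9.85 in tumour 5, Prdm1 (6.19 ± 0.23) and Klf4 (6.02 ± 0.28; SD, n = 8 each). Dlx6, the neighbour of Dlx5, was at 7.41 and 7.58 in tumours 3 and 5 and at 4.56 to 5.47 in the others. Of 14 later crest specifiers 13 were above background, and the exception, Rxrg, was at 7.44 and 7.35 in tumours 4 and 6 and at 5.04 to 5.56 in the others. Among those above background were Id2 (9.004 ± 0.79), a helix-loop-helix inhibitor, Lmo4 (8.41 ± 0.38) and Myb (8.00 ± 0.34; SD, n = 8 each), while Snai1, Id3 and Sox10 passed narrowly (limma, adjusted p = 0.0489, 0.0461 and 0.037). The count was 10 without tumour 4, 6 or 8. Of 16 effectors of migrating crest cells 15 were above background, with Itgb1, an integrin, at 10.13 ± 0.15 and the semaphorin receptor Nrp2 at 10.001 ± 0.26 (SD, n = 8 each). Robo1, a guidance receptor, was highest in tumour 6 (10.18), as was Crabp1 (12.05), a retinoic acid binding protein. The exception among effectors was Ngfr, the low-affinity neurotrophin receptor, at 5.63 ± 0.14 (SD, n = 8). Fibroblasts, endothelium and macrophages had 9 of 10, 8 of 10 and 10 of 10 markers above background in the same tumours, and several of these effectors are expressed by such cells. Which cells made the RNA of the later specifiers and of the effectors was not tested. Of 19 paralogues 6 were above background, Tfap2b, Ets2, Fli1, Erg, Tfap2e and Zic5, and of 11 cofactors and inhibitors 9, the exceptions being Gli2 (5.58 ± 0.17) and Gli3, which was at 7.33 and 6.68 in tumours 4 and 6 and at 5.16 to 5.70 in the others. The shares of the members and of their paralogues above background, 3 of 9 and 6 of 19, were below that of all genes, and no test of a list was made.

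**Figure D5:**
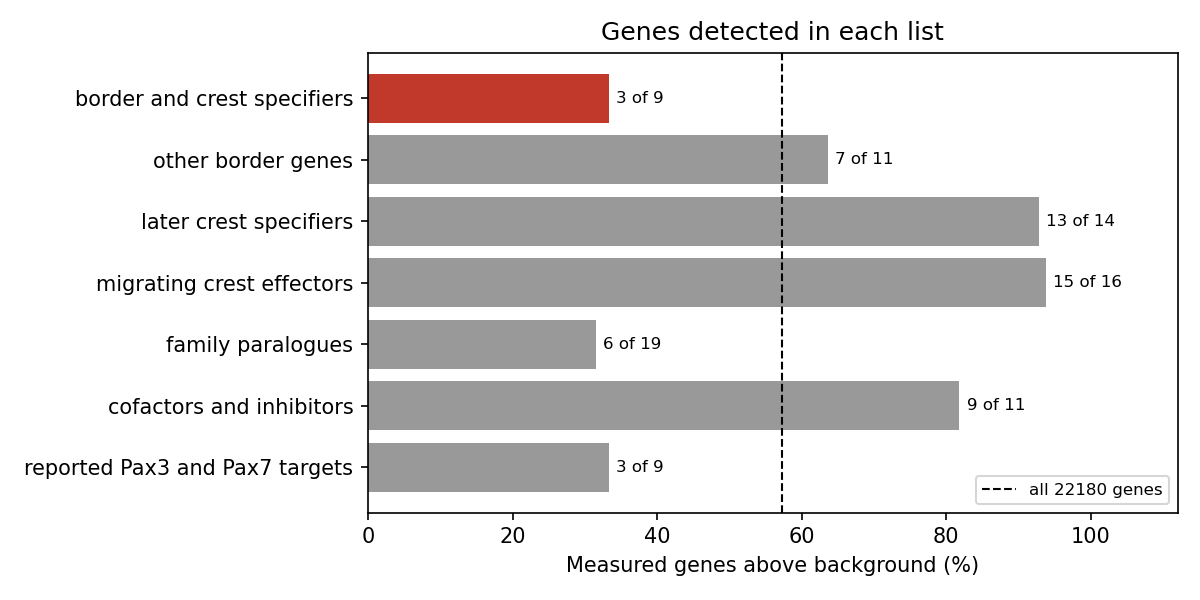
Share of measured genes above background (limma, adjusted p under 0.05) in each list, with counts beside the bars and the 57.3% of all 22180 genes as a dashed line. The border and crest specifiers (3 of 9) lie left of the line and the later crest specifiers (13 of 14) and migrating crest effectors (15 of 16) right of it.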

How the data were processed

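Total RNA of 8 tumours was labelled with biotin and hybridised to Affymetrix arrays, 1 per tumour. The deposited values are log2 levels per probe set, which the authors made with RMA and with Partek 6.5. This is per the submitters' processing notes, where no step is assigned to a tool. The values, 2.07 to 13.61, show the log2 scale. Arrays hold no counts, and their number limits the precision. Of 41345 probe sets 23521 carry 1 symbol, 1814 several and 16010 none in the platform annotation, and only the first were used. Detection was fitted with limma 3.58.1 in R 4.3.3 (level minus background of the same array, intercept alone, trend and robust prior) over 22180 genes. Relations used exact permutation of 40320 pairings, two-sided. No r was given where the largest gap between neighbouring tumours exceeded 50% of a measure's range. Other computations used Python 3.11.15. Named genes are the members, in each list the 3 detected genes with the highest mean above background and the 3 with the largest SD, and the 3 genes most like a detected member with an SD of at least 0.5. Others named were chosen after their values were seen. The members and lists were chosen with earlier results of these data known.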

Additional observations from a re-analysis of the deposited data

Results flagged for a closer look

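Of 38 genes, the 9 members and the named genes of the crest lists, 7 had 1 tumour far from the other 7, judged by its gap to the nearest tumour as a share of the range. Chance flags about 1 in 20 groups that are not selected. Some of the named genes were chosen for a large SD in these tumours, so the 7 cannot be set against that rate. The rule was applied to these 38 genes only, so no share over all genes stands beside the count. Whether the members were flagged more often than other genes was not tested. Among the members the flagged genes were Pax7 (6.97), Zic1 (5.70) and Zic2 (5.83), each highest in tumour 4. Outside them, Tfap2d (6.22) and Dct (8.01) also stood apart in tumour 4. Tfap2b was apart at its lowest in tumour 6 (4.88), and Cited2 at its lowest in tumour 5 (10.66). No cause was tested.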

How the results depend on the processing

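The level of background changed results most. At the 99th percentile 0 of 9 members were above it (Foxd3 0.35, limma, adjusted p = 0.112; Ets1 -0.049, adjusted p = 0.716; Pax7 -0.45), and of the lists 0 other border genes, 3 later crest specifiers, 3 paralogues and 1 Pax target. At the median all 9 members were above it (Tfap2a by 1.94, Tfap2c 0.52, Pax3 2.07, Msx2 1.33, Zic1 1.40, Zic2 1.48), with 11 other border genes, 19 paralogues and 9 Pax targets. At the 90th percentile Pax3 was above it by 0.56, giving 4 members, 12 paralogues and 7 Pax targets. The genes called overall were 9296, 20164 and 15122 at these levels. With the mean of all probe sets 4 other border genes were called. The count of 3 members was the same with arrays quantile normalized again, a plain limma prior, a filter on dim genes, without each tumour in turn (3 to 3) and, chosen after seeing the data, without tumours 4 and 6. Without tumours 4 and 6 Pax3 was below background (-0.15, limma, adjusted p = 0.0448). Each of the 9 measured members has 1 probe set with its symbol alone, so the choice of probe set cannot change its value, nor can centring arrays change a difference from background. Without single tumours 10 to 13 later crest specifiers and 2 to 3 Pax targets were called. Of the relations computed 0 to 4 passed without single tumours. Those of Foxd3 were not computed without tumour 4, 5 or 6, so the counts there leave them out. The relation of Foxd3 with glial markers turned to -0.27 without its 2 farthest tumours. The difference of Tfap2c in tumour 4 turned to 0.046 with centred and 0.076 with requantiled arrays. No paired analysis was possible because the labels give 1 group. Why these values changed was not tested beyond the construction of each setting.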
